A study of Mus musculus with 3 samples.

Results

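The 10 genes described are those of peptide presentation on MHC class I molecules: the heavy chains H2-K1 and H2-D1, their light chain B2m, the peptide transporter genes Tap1 and Tap2, the loading factor Tapbp, the immunoproteasome subunits Psmb8, Psmb9 and Psmb10, and the transcriptional coactivator Nlrc5. They were chosen by symbol, all 10 were found among the 55536 genes of the deposited gene tables, and the rule uses no measured value. The data are RNA-seq of total RNA depleted of ribosomal RNA, taken from the cytosol of macrophages grown from C57BL/6J mouse bone marrow and treated with Lipid A at 100 ng/ml for 20 min. Lipid A anchors lipopolysaccharide in the bacterial outer membrane and activates the receptor Tlr4. There were 3 libraries of this 1 condition, numbered by the labels as biological replicates 1 to 3 with 1 shared donor identifier, so an SD measures the spread between these samples and may be partly technical. Age and sex were not collected, per the labels. Untreated cells and other times are not analysed here, so the values below are levels, and no gene is called induced or repressed.

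MHC class I molecules display fragments of a cell's own proteins to CD8 T cells. The proteasome cuts the proteins, the TAP transporter carries the peptides into the endoplasmic reticulum, tapasin and chaperones load them onto a heavy chain paired with β2-microglobulin, and the complex moves to the surface. Interferons raise most genes of this pathway. Among them are the immunoproteasome subunits, which take the place of the constitutive catalytic subunits, and Nlrc5, a coactivator of the class I promoters.

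Depth was 27392626, 81597761 and 37176950 expected counts per library, for replicates 1, 2 and 3. Nuclear protein-coding genes took 24.97%, 22.002% and 19.6% of all TPM (transcript abundance corrected for length, with a fixed sum per library) in the same order, and other RNAs took the rest. Levels are therefore also given as rescaled TPM, that is TPM divided by the sum over nuclear protein-coding genes of the library and put back on the TPM scale. On the deposited TPM scale the median gene was higher in replicate 1 than in replicate 3 by 0.32 (log2), and after rescaling the median difference was -0.02. All 10 macrophage markers, among them Csf1r and Lyz2, reached 1 TPM in every library, and none of the 23 markers of T, NK, B and dendritic cells, neutrophils, fibroblasts and endothelium did. On rescaled TPM 1 of the 23 did, the dendritic cell marker Ccr7, at 1.76, 2.50 and 2.19 in replicates 1, 2 and 3. The nuclear RNA Malat1 was at 359, 248 and 763 TPM and Neat1 at 31.7, 23.6 and 83.9 TPM in replicates 1, 2 and 3, both highest in replicate 3. In RNA of a whole culture, fewer cells of a type and less RNA per cell cannot be told apart.

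All 10 genes reached 1 TPM in all 3 libraries, against 40.5% of the 22015 nuclear protein-coding genes. Their median level was 47.2 TPM, compared with 6.66 TPM for protein-coding genes of mean TPM 1 or more. B2m, which encodes the light chain common to all class I molecules, was the highest, followed by H2-D1, H2-K1, Tapbp, Psmb8, Psmb10, Tap1, Psmb9, Tap2 and Nlrc5. Each of the 3 libraries gave this same order. The ranges over libraries of 3 neighbouring pairs overlapped, namely Psmb8 with Psmb10, Tap1 with Psmb9, and Tap2 with Nlrc5, and those of the other 6 pairs did not. Together the 10 genes made up 1.68%, 1.56% and 1.47% of nuclear protein-coding TPM in replicates 1, 2 and 3.

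**Figure D1:**
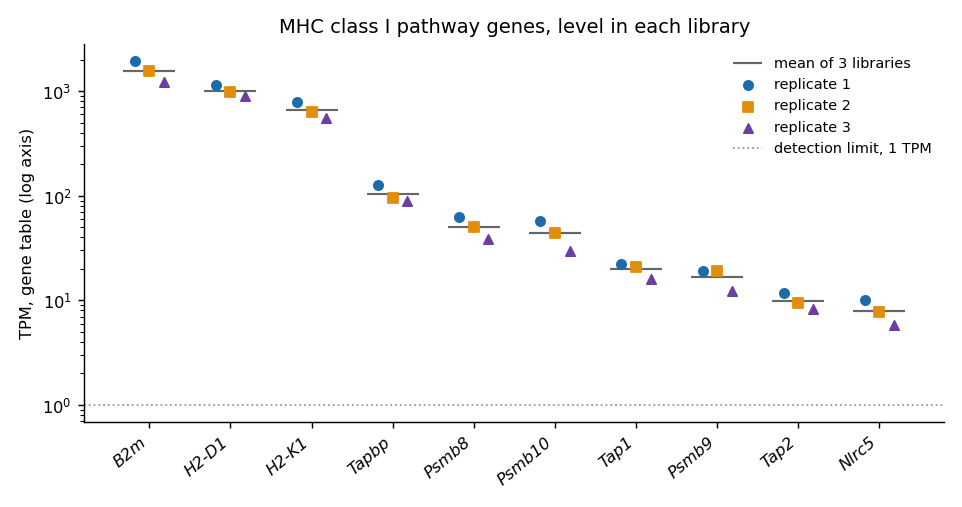
TPM of each gene in the gene table (y axis, log scale) in replicates 1 (circles), 2 (squares) and 3 (triangles), with the mean of the 3 libraries as a line and genes ordered by mean. All points lie above the detection limit of 1 TPM, with B2m between 1235 and 1942 TPM and Nlrc5 between 5.76 and 10.2 TPM.

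The 2 classical heavy chains of this strain were among the most abundant mRNAs of the cells. H2-D1, at chr17:35262730-35267499 on the plus strand of mm10, was at 1149.9, 987 and 895 TPM in replicates 1, 2 and 3, from 101719, 292270 and 126316 expected counts. H2-K1, at chr17:33996017-34000347 on the minus strand, was at 783, 640.4 and 558 TPM. H2-K1 ranked above 99.7% and H2-D1 above 99.8% of the nuclear protein-coding genes that averaged 1 TPM or more. H2-D1 exceeded H2-K1 in every library, by 1.47, 1.54 and 1.60 times, a mean of 1.54 ± 0.0683 (SD, n = 3). Their coding sequences are close, so the split of reads between them rests on the positions that differ. Over the 5 coding exons of equal length, 822 of 894 bases were identical (91.9%), and of the 31-base windows of the transcript H2-K1-201, 16.9% also occurred in transcripts of H2-D1. Identity was 91.1% in coding exon 2 and 88.0% in coding exon 3, which encode the peptide-binding domains, and 96.0% in coding exon 4, which encodes the domain next to the membrane. The first 90 bases of coding exon 2, which encodes the start of the first peptide-binding domain, are shown to give the kind of difference that separates the 2 genes, with the 11 differing bases in capitals; they lie at chr17:33999914-34000003 on the minus strand for H2-K1 and chr17:35263379-35263468 on the plus strand for H2-D1.
H2-K1-201: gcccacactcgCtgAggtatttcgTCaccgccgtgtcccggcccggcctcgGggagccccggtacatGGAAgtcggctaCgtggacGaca
H2-D1-202: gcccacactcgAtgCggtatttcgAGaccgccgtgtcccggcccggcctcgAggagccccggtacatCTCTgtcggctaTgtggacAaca

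B2m, at chr2:122147686-122153083 on the plus strand, is outside the MHC region and has 1 annotated transcript. It reached 1942, 1557 and 1235 TPM in the 3 libraries. The sum of H2-K1 and H2-D1 was close to it: B2m was 1.00, 0.957 and 0.850 times that sum, a mean of 0.937 ± 0.0790 (SD, n = 3). In the second transcript table the ratio was 1.10, 1.07 and 0.954, so which side was higher depended on the table. H2-K1 and H2-D1 held 90.1%, 91.0% and 91.6% of the summed TPM of 20 class I genes with an H2 symbol.

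The genes for the transporter and for tapasin followed at lower levels. Tapbp encodes tapasin, which bridges the transporter and the empty heavy chain. At chr17:33915899-33929292 on the plus strand, it stood at 128, 95.9 and 89.7 TPM in replicates 1, 2 and 3. Tap1 and Tap2 encode the 2 chains of the transporter, which act as a pair. Tap1, at chr17:34187553-34197225 on the plus strand, was at 22.5, 20.9 and 16.0 TPM. Tap2, at chr17:34203527-34216321 on the plus strand, was at 11.7, 9.44 and 8.19 TPM. Tap1 was therefore 1.92, 2.21 and 1.95 times as high as Tap2 (mean 2.03 ± 0.158, SD, n = 3), and the ranges of the 2 genes did not overlap. Tap1 starts beside Psmb9 on the opposite strand, and their annotated gene bodies overlap by 212 bases. The sources do not say whether the libraries keep strand, and reads in that overlap could belong to either gene.

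The 3 immunoproteasome subunits replace 3 constitutive catalytic subunits one for one, Psmb8 in place of Psmb5, Psmb9 in place of Psmb6 and Psmb10 in place of Psmb7. Psmb8, at chr17:34197721-34201454 on the plus strand, was at 63.1, 50.1 and 38.5 TPM in replicates 1, 2 and 3, against 34.9, 26.6 and 23.7 TPM for Psmb5. The Psmb8 level was above that of Psmb5 in each library, by 1.81, 1.89 and 1.63 times (mean 1.77 ± 0.134, SD, n = 3). Psmb10, at chr8:105935735-105938444 on the minus strand, was at 57.9, 43.8 and 29.7 TPM, against 24.9, 22.5 and 20.0 TPM for Psmb7. Its ratio to Psmb7 was 2.33, 1.95 and 1.48 (mean 1.92 ± 0.423). Psmb9 was the reverse of these pairs: at chr17:34181987-34187764 on the minus strand, it stood at 19.0, 19.0 and 12.3 TPM, against 101, 96.0 and 82.6 TPM for Psmb6, or 0.188, 0.198 and 0.149 times its partner. So on gene-level TPM 2 of the 3 immunosubunit mRNAs exceeded their constitutive partners in every library, and the third was below its partner in every library. With 3 libraries an exact sign-flip test of such a ratio cannot give a two-sided p below 0.25, so none is given as a test. Both directions above parity turned when only protein-coding transcripts were counted, as described with the transcripts. The genes of the interferon-inducible proteasome cap, Psme1 and Psme2, stood at 48.9 ± 12.03 and 64.5 ± 18.02 TPM.

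Nlrc5, at chr8:94434356-94527272 on the plus strand, was the lowest of the 10 genes at 10.2, 7.77 and 5.76 TPM in replicates 1, 2 and 3. These levels rest on 1865, 4584 and 1801 expected counts, more than those of Psmb9 in each library. Of 18 regulators of class I transcription, 17 reached 1 TPM in every library, against 40.5% of nuclear protein-coding genes. Among them, the myeloid factor Irf8 was at 52.3 ± 6.45 TPM and Irf1, an interferon-induced activator, at 30.5 ± 20.8 TPM (SD, n = 3). Irf1 was at 54.5, 19.97 and 17.2 TPM, with replicate 1 well above the others. The exception was Ciita, the counterpart of Nlrc5 for class II promoters, at 0.880, 0.550 and 0.490 TPM. On rescaled TPM it was at 3.52, 2.50 and 2.49, and all 18 regulators reached 1. The Rfx5, Rfxap and Rfxank genes of the RFX complex, through which Nlrc5 reaches DNA, were at 1.65 ± 0.317, 4.85 ± 0.488 and 1.90 ± 0.210 TPM.

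Class I promoters are known for elements bound by NF-kB, by interferon regulatory factors and by the complex that Nlrc5 joins. The 250 bases before the annotated start were read from RefSeq (GRCm38.p6) for the 8 of 10 genes that the promoter table holds. The following 4 motifs were searched on both strands: GAANNGAAA, a core of interferon regulatory factor sites, GGGNNTTCC, a core of NF-kB sites, TGACG, the core of CREB/ATF sites, and CCAAT, the NF-Y box. GAANNGAAA occurred upstream of 2 of the 8 genes, H2-K1 and H2-D1, and of 7.30% of the 27025 genes of the table. GGGNNTTCC occurred upstream of the same 2 genes and of 5.61% of all genes. TGACG occurred upstream of 5 genes (H2-K1, H2-D1, B2m, Tap1 and Psmb9) and of 19.8% of all genes, and CCAAT upstream of these 5 and Tapbp and of 37.5% of all genes. Between the RefSeq starts of Psmb9 and Tap1, on opposite strands, lie 225 bases, and the matches of both genes are the same 1 TGACG and 1 CCAAT in that stretch. Psmb8 and Psmb10 had none of the 4 motifs in this window. These are matches of letters, not measured binding. Each pattern fixes its spacing, so a gene without a match may still hold a like element of another spacing. The B2m window holds gaaactgaaa and gggaaagtccc, which resemble GAANNGAAA and GGGNNTTCC but differ in spacing and were not counted. For 4 of the 8 genes (H2-D1, Psmb8, Psmb9 and Tapbp) all 250 bases lie inside the gene body that GENCODE gives, and for Psmb10 52 of them do, so the search does not cover what lies before the earlier starts of these genes. The H2-K1 window (chr17:34000348-34000597, minus strand) and the B2m window (chr2:122147437-122147685, plus strand, ending before the first base that GENCODE gives to B2m) are shown because they carry the motifs of the 2 chains of 1 complex. The matched motifs are in capitals and do not overlap.
H2-K1: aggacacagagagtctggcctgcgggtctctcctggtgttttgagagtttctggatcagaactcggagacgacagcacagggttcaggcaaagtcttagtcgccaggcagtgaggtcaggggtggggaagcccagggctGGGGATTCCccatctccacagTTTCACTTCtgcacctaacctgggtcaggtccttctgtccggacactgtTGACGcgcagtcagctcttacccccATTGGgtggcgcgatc
B2m: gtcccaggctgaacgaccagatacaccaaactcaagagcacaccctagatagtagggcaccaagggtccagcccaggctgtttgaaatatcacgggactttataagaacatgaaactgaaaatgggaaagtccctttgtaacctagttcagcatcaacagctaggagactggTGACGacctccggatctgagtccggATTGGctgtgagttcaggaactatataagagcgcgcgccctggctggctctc

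The stretch from the NF-kB core to the interferon regulatory factor core is nearly the same in both heavy chain genes. Its 30 bases lie at chr17:34000429-34000458 on the minus strand for H2-K1 and chr17:35262923-35262952 on the plus strand for H2-D1, and 1 base differs. Capitals mark the 2 motifs.
H2-K1: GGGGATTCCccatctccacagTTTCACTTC
H2-D1: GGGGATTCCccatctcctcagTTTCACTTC

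Several of the 10 genes had a large part of their TPM in transcripts that the annotation does not class as protein-coding. Transcripts of the biotype retained_intron, which keep an intron and are annotated without a coding sequence, held 78.1% ± 3.31 of Tap2 TPM, 49.8% ± 2.20 of Psmb8, 45.4% ± 0.851 of H2-K1 and 29.0% ± 0.827 of Nlrc5 (SD, n = 3). These 4 of 10 genes had at least 25% of their TPM there in all 3 libraries, against 3.37% of the 9165 nuclear protein-coding genes of mean TPM 1 or more, whose median share was 0.331%. The limit of 25% was set after the shares were seen. In the second transcript table the shares were 74.1% ± 1.59 for Tap2, 49.8% ± 1.05 for Psmb8 and 35.1% ± 3.40 for H2-K1, but 6.18% ± 1.60 for Nlrc5, whose call did not hold there. The other 6 genes held between 0% (B2m) and 14.5% (Psmb10) of their TPM in retained_intron transcripts.

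**Figure D2:**
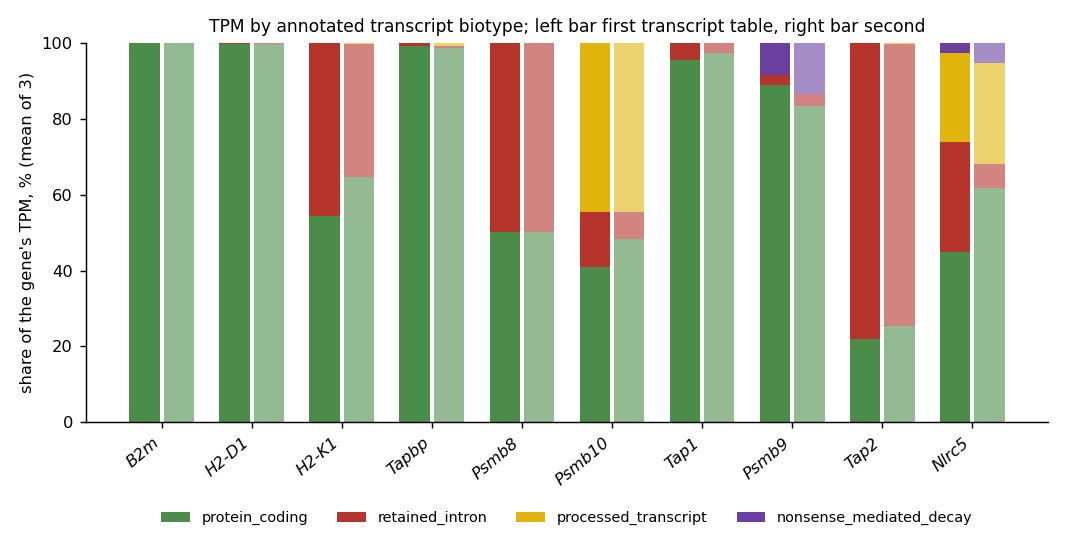
Share of each gene's TPM (y axis, percent, mean of 3 libraries) by the annotated biotype of its transcripts, with the first transcript table as the left bar and the second as the right, paler bar. Tap2, Psmb8 and H2-K1 show a large retained_intron part in both tables, Nlrc5 in the first table only, and Psmb10 a processed_transcript part of 44.7% and 44.5%.

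In Tap2 a single transcript carried this share. Tap2-202 held 74.3%, 80.6% and 79.2% of Tap2 TPM in replicates 1, 2 and 3, and the protein-coding Tap2-201 held 25.7%, 19.4% and 20.8%. Tap2-202 keeps intron 6 of Tap2-201, which is 162 bases long, and those 162 bases are the only ones of its 2561 that no protein-coding transcript of the gene contains. It also lacks 1043 bases of Tap2-201. The kept intron lies at chr17:34212068-34212229 on the plus strand and is shown in capitals with 15 exon bases on each side. Beside the missing bases, this intron is what separates the 2 transcripts. It begins with GT and ends with AG, as introns usually do.
Tap2-202: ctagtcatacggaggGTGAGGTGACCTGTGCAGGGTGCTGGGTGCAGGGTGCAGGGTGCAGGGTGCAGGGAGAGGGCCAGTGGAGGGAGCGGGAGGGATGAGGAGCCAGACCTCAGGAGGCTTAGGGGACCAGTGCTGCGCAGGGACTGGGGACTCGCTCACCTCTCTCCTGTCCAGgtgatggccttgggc

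In Psmb8 the shares were even. Psmb8-205, of the biotype retained_intron, held 46.5%, 50.1% and 49.2% of TPM in replicates 1, 2 and 3, and the protein-coding Psmb8-203 held 50.2%, 47.8% and 47.2%. By expected counts Psmb8-205 had 59.2% ± 1.95 and Psmb8-203 had 36.0% ± 1.25. Psmb8-205 is the longer of the pair, at 1234 against 840 bases. Psmb8-205 keeps intron 3 of Psmb8-203, 190 bases at chr17:34199381-34199570 on the plus strand, and has 245 bases beyond the ends of Psmb8-203. Of its 1234 bases, 190 lie in no protein-coding transcript of the gene. The kept intron is shown in capitals with 15 exon bases on each side.
Psmb8-205: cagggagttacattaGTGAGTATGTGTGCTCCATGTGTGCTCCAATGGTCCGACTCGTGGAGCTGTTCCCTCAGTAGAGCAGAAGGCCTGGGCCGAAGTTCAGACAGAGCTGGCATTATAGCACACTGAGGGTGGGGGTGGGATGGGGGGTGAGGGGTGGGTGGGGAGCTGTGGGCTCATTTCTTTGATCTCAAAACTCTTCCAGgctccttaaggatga

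In H2-K1 the share rested on a short transcript. H2-K1-215, with 457 bases, held 43.5%, 42.9% and 44.0% of H2-K1 TPM but 12.1% ± 0.486 of its expected counts. The protein-coding H2-K1-201 and H2-K1-205 held 40.3% ± 2.24 and 10.6% ± 1.43 of TPM, and 66.3% ± 3.24 and 16.9% ± 2.39 of counts. H2-K1-215 covers parts of the last 2 exons of H2-K1-201, and only its first 20 bases fall in no protein-coding transcript. These 20 bases, the end of an intron, are in capitals below, followed by the exon, at chr17:33996616-33996674 on the minus strand.
H2-K1-215: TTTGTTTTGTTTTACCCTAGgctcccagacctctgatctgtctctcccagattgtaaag

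Psmb10 and Nlrc5 were divided among other kinds of transcript. In Psmb10 the processed_transcript Psmb10-203, of 426 bases, held 49.1%, 45.2% and 39.6% of TPM in replicates 1, 2 and 3, and 15.5% ± 1.92 of expected counts. Its only protein-coding transcript, Psmb10-201, held 37.9%, 42.4% and 42.2% of TPM and 74.9% ± 1.27 of counts. Only 48 bases of Psmb10-203 lie outside Psmb10-201. In Nlrc5 the full-length protein-coding Nlrc5-207 held 37.2% ± 3.84 of TPM and 73.7% ± 8.23 of counts. Nlrc5-203 (retained_intron) held 26.9% ± 2.63 of TPM and 10.9% ± 1.39 of counts. Nlrc5-209 (processed_transcript, 346 bases) held 16.99% ± 4.12 of TPM but 0.602% ± 0.195 of counts. Its share rests on only 8.22, 37.55 and 9.81 expected counts in replicates 1, 2 and 3. Of the 1727 bases of Nlrc5-203, only 2 lie in no protein-coding transcript of the gene. In the second table Nlrc5-207 held 60.2% ± 2.96. Of the 31-base windows of Nlrc5-209, 15.2% also occurred in 9330175E14Rik, a gene on the other strand.

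The remaining 5 genes were mostly protein-coding by this measure. H2-D1-202 held 93.9% ± 0.960 of H2-D1 TPM, Tapbp-206 88.1% ± 0.510 of Tapbp, Tap1-206 71.8% ± 4.39 of Tap1 with Tap1-201 at 21.6% ± 0.908, and Psmb9-204 65.7% ± 9.78 of Psmb9 with Psmb9-202 at 22.3% ± 3.99. In the second table the Tap1 split was different, with Tap1-206 at 91.6% ± 0.332 and Tap1-201 at 4.05% ± 0.913. In Psmb9 the share of the nonsense_mediated_decay transcript Psmb9-207 was uneven, at 2.06%, 14.8% and 8.94% in replicates 1, 2 and 3. Genes are also annotated on the strand opposite to the kept introns. Of the 31-base windows of Psmb8-205, 27.1% also occur in Gm20496, and of those of Tap2-202, 16.9% occur in Gm15821. The counting model assigned 0 expected counts to Gm20496 in each library and 1.01, 4.06 and 4.03 to Gm15821 in replicates 1, 2 and 3. Because the sources do not state strand, reads within these shared stretches could belong to either gene. Reads that cross single exon junctions are not in the tables and are not analysed here.

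Counting only transcripts of the biotype protein_coding changed the ratios between partner genes. Psmb8 was then 0.954, 0.921 and 0.796 times Psmb5 in replicates 1, 2 and 3, below parity in each. Psmb10 was 0.883, 0.827 and 0.631 times Psmb7, also below parity in each. Psmb9 stayed below Psmb6, at 0.218, 0.193 and 0.161 times. On this count all 3 immunosubunit mRNAs were below their constitutive partners in every library, while on all transcripts only Psmb9 was. The ratio of Tap1 to Tap2 widened to 7.43, 10.2 and 9.21, with Tap2 left at 3.00, 1.83 and 1.70 TPM. H2-D1 was 2.67, 2.79 and 2.99 times H2-K1, and B2m 1.23, 1.16 and 1.04 times the sum of H2-K1 and H2-D1. The second table gave the same directions on protein-coding transcripts for these 6 ratios, with Psmb8 to Psmb5 at 0.888 ± 0.0846 and Psmb10 to Psmb7 at 0.831 ± 0.126 (SD, n = 3). In the order of levels, Psmb10 fell below Tap1 and Tap2 below Nlrc5 in all 3 libraries on this count. Which count stands for translated mRNA was not tested.

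**Figure D3:**
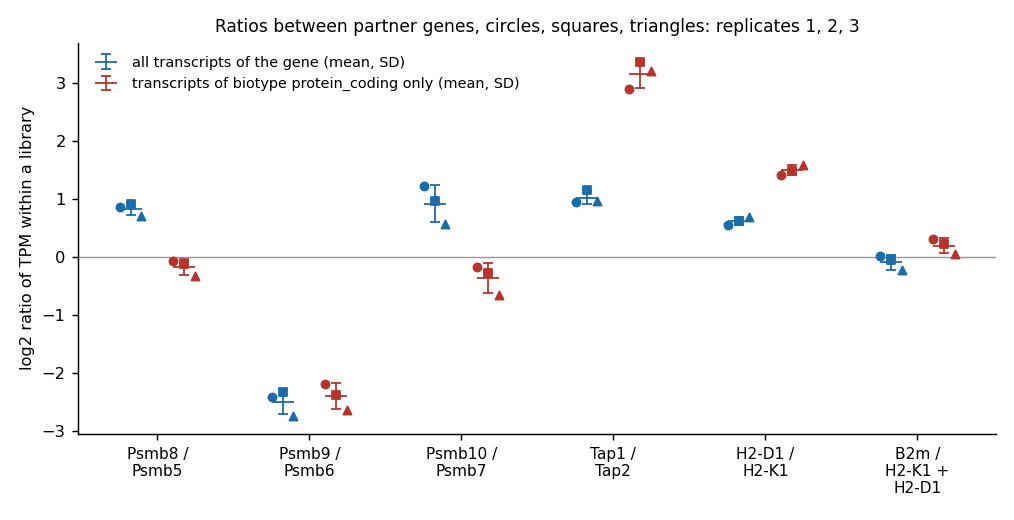
Log2 ratio of TPM within a library (y axis) for 6 pairs of partner genes, from all transcripts (blue) and from transcripts of biotype protein_coding only (red), with replicates 1, 2 and 3 as circles, squares and triangles and the mean ± SD as bars. The Psmb8 and Psmb10 ratios lie above 0 in blue and below 0 in red, and the Psmb9 ratio lies below -2 in both.

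The genes also differed between libraries after rescaling, mostly in 1 direction. Rescaled TPM was highest in replicate 1 for 8 of 10 genes, against 30.4% of 9165 nuclear protein-coding genes, and lowest in replicate 3 for 8 of 10, against 31.6%. Psmb9 and Tap1 were the 2 with their highest value in replicate 2, and H2-D1 and Tapbp the 2 with their lowest in replicate 2. All 10 were higher in replicate 1 than in replicate 3, by a median of 0.22 (log2), compared with -0.02 for the median of 9680 genes. The smallest difference was that of H2-D1, at 0.02, from rescaled levels of 4605, 4487 and 4554 TPM in replicates 1, 2 and 3. The largest was that of Psmb10, at 0.62, from 232, 199 and 151 rescaled TPM, followed by Nlrc5 at 0.47, from 40.7, 35.3 and 29.3 rescaled TPM. Psmb8 differed by 0.37, from 253, 228 and 196 rescaled TPM, B2m by 0.31, from 7777, 7077 and 6284, and Psmb9 by 0.28, from 75.9, 86.4 and 62.6. The median was 0.27 with TMM-normalised CPM (against -0.01 for all genes) and 0.30 with DESeq2 size factors (against 0.02), and on both scales all 10 genes were higher in replicate 1.

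Interferon response genes were also highest in replicate 1 with few exceptions. Of 19 such genes, 18 were highest in replicate 1 and 18 lowest in replicate 3, with a median difference between replicates 1 and 3 of 0.66 (log2 rescaled TPM). The highest 3 were Bst2, an interferon-induced tether of virus particles, at 619, 498 and 413 rescaled TPM in replicates 1, 2 and 3, Ifit2 at 429.8, 274 and 223, and Ifit3 at 354, 281 and 209. The exceptions were Irf9, which was highest in replicate 2, and Mx1, which was lowest in replicate 2. Other class I heavy chains had a median difference of 0.21, with 11 of 12 highest in replicate 1 among those of mean TPM 1 or more. The lists of loading chaperones (3 of 9 highest in replicate 1, median -0.04), peptide trimming enzymes (3 of 9, -0.01), constitutive proteasome and activator genes (4 of 10, -0.01) and macrophage markers (2 of 10, -0.03) had medians near that of all genes. The regulators lay between, with 9 of 17 highest in replicate 1 and a median of 0.12. On TMM-normalised CPM the count highest in replicate 1 was 9 of 10 for the class I pathway genes, 18 of 19 for interferon response genes, 11 of 12 for other heavy chains, 10 of 17 for regulators, 6 of 9 for loading chaperones, 4 of 9 for trimming enzymes, 5 of 10 for constitutive proteasome and activator genes and 4 of 10 for macrophage markers. No share over all genes is given on the TMM scale, so these counts have no background beside them. Within the constitutive proteasome and activator list, the activators Psme2 and Psme1 differed by 0.48 and 0.38 (log2 rescaled TPM). Malat1 and Neat1, with their highest levels in replicate 3, ran opposite, at -1.43 and -1.75 on the rescaled scale. The part of nuclear RNA, depth or the culture in these differences was not tested.

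**Figure D4:**
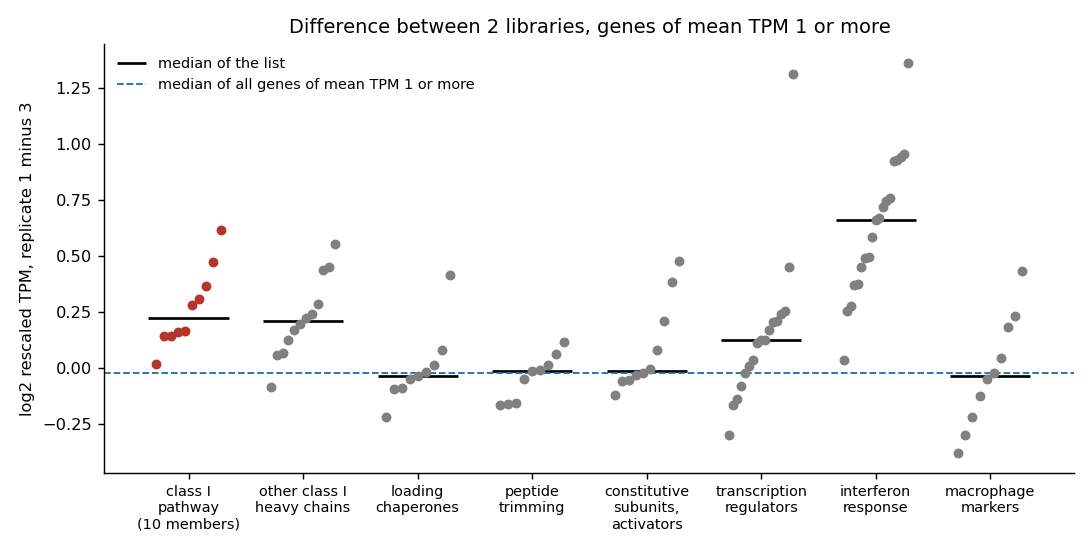
Difference in log2 rescaled TPM between replicate 1 and replicate 3 (y axis) for genes of mean TPM 1 or more in 8 gene lists, with each gene as a point, the list's median as a black line and the median of all genes as a dashed line. The 10 class I pathway genes (red) lie between 0.02 and 0.62, all above the dashed line at -0.02, and interferon response genes reach 1.36.

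The spread over the 3 libraries differed widely among the 10 genes. Their median SD of log2(rescaled TPM + 1) was 0.14, compared with 0.10 over 9730 genes of mean TPM 1 or more. It was lowest for H2-D1 (0.02) and highest for Psmb10 (0.31), with Psmb9 and Nlrc5 both at 0.23. From expected counts, edgeR gave a median biological coefficient of variation, the spread beyond counting error, of 0.0990 for the 10 genes and 0.0596 for 12430 genes. Psmb10 had the largest at 0.177, and H2-D1 stood at 0.00988, the lowest value the fit gives. Without replicate 3 the median of the 10 genes was 0.0475, against 0.0391 for the genes tested in that fit. Which median was higher depended on the method: DESeq2's dispersion gave 0.0915 for the 10 genes and 0.106 for all genes, edgeR without a filter on low counts 0.104 and 0.113, and edgeR moderated over genes 0.106 and 0.104.

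Other genes of the pathway were present at levels that varied by role. Of 23 further class I and class I-like heavy chains matched, 10 reached 1 TPM in all libraries, a share similar to the 40.5% of nuclear protein-coding genes. On rescaled TPM 13 of the 23 did. H2-T23, which encodes the Qa-1 chain, was the highest at 88.1 ± 18.5 TPM, then Fcgrt, the receptor that recycles immunoglobulin G, at 49.0 ± 4.87 TPM and H2-T22 at 32.6 ± 9.89 TPM (SD, n = 3). H2-T10 (1.06 ± 0.166 TPM) and Cd1d1, which presents lipids (1.06 ± 0.227), fell just short of the limit in 2 libraries each, and H2-M2 was at 0.293 ± 0.137 TPM. H2-T-ps, H2-Q10 and H2-Q1 were at 0.210, 0.0333 and 0.00333 TPM in the mean, and H2-T3, H2-Q2, H2-M5, H2-M9, H2-M10.1, H2-Bl and Cd1d2 had 0 counts in every library, which was not detectable at this depth. Where 0 counts were seen, up to 3 are allowed by counting error, which corresponds to 0.110, 0.0368 and 0.0807 CPM (counts scaled by library size) in replicates 1, 2 and 3. Several of these genes are near-identical copies, so the split of reads among them is uncertain.

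All 9 genes of the loading chaperones and all 9 matched peptidases reached 1 TPM in every library, against 40.5% of nuclear protein-coding genes. Calreticulin (Calr), which holds the heavy chain and light chain during loading, was at 204 ± 28.4 TPM, the chaperone Hspa5 at 162 ± 25.5 TPM and calnexin (Canx) at 106 ± 15.2 TPM. Tapbp averaged 104 ± 20.3 TPM. Calr and Hspa5 were above it in each library, whereas Canx was below it in replicate 1 and above it in replicates 2 and 3. Tapbpl, the tapasin-related editor of bound peptides, was lower at 4.07 ± 1.04 TPM. Among the peptidases Lnpep, which trims peptides in endosomes, was at 17.9 ± 2.30 TPM, Dpp8 at 16.9 ± 2.17 TPM and Npepps at 14.2 ± 2.41 TPM. Erap1, which trims peptides in the endoplasmic reticulum, was at 11.0 ± 2.01 TPM, close to the level of Tap2. All 10 genes of the constitutive proteasome and activator list also reached 1 TPM, led by Psmb6 at 93.2 ± 9.47 TPM, Psme2 and Psme1.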

How the data were processed

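RNA of the cytosolic fraction was sequenced in 3 libraries of 1 condition, and group and replicate number came from the labels. Per the file headers and the deposited notes, each library had tables of genes and of transcripts from alignments, plus a second table of transcripts made from unaligned reads, on mm10 with GENCODE M21. Column names match RSEM and kallisto output, but the sources used here name no tool or version. The deposited expected counts are model estimates that need not be whole, the deposited TPM has a fixed sum per library, the deposited FPKM is per kilobase at a common depth, and the deposited percent per isoform is a transcript's share of its gene.

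Members were matched by symbol, transcripts were summed to genes in the second table, and biotypes and positions came from GENCODE M21. All listed symbols but H2-T9 and Nrdc matched. TPM was rescaled over 22015 nuclear protein-coding genes. Ratios were taken within a library. For the coefficient of variation, expected counts were rounded, passed through filterByExpr (minimum count 10), scaled with TMM and fitted in edgeR 4.0.16 (R 4.3.3, estimateDisp with an intercept only and a prior df of 0, chosen after fits to simulated counts); DESeq2 1.42.0 and moderation over genes were alternatives. Rows that name no gene held 0.402%, 0.108% and 0.122% of counts in replicates 1, 2 and 3 and stayed out of the fit. The named genes were all 10 members, partner subunits, transcripts with at least 10% of a member's TPM, and the 3 highest and the undetected genes of each list; others were chosen after their values were seen, and 1 gene that the rule names is not reported here. Members and lists were chosen with earlier results of these data known. Alternatives were leaving out each library, other scales, tables, limits and pseudocounts; counting only protein_coding transcripts, rescaling the second table and moderation over genes were added after the data were seen. There being 1 condition, no groups were tested against each other. The share of 31-base windows counts exact matches on either strand in other genes' annotated transcripts.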

Additional observations from a re-analysis of the deposited data

How the results depend on the processing

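All 10 members stayed detected under every alternative run, and the count highest in replicate 1 ran from 8 to 10. The share over all genes is given for rescaled TPM only, at 30.4%, or 33.5% for genes of mean TPM 10 or more. On deposited TPM 9 members were highest in replicate 1, but there the median gene was also higher in replicate 1 than in replicate 3, by 0.32 (log2). The median level of the members was 17.2 TPM in the second table, 209.8 on the rescaled scale and 22.2 with protein_coding transcripts only. With protein_coding transcripts only, the log2 ratio was -0.17 for Psmb8 to Psmb5 and -0.37 for Psmb10 to Psmb7, both turned in sign, 3.15 for Tap1 to Tap2, 1.49 for H2-D1 to H2-K1 and 0.19 for B2m to the sum of H2-K1 and H2-D1, also turned. In the second table the H2-D1 to H2-K1 value was 0.76 and the B2m value 0.059, which turned. The median SD was 0.43 in the second table as deposited (0.22 over all genes) and 0.15 once that table was rescaled (0.11 over all genes), and 0.30 on deposited TPM (0.16 over all genes). Leaving out 1 library at a time gave coefficients of variation of 0.0475 to 0.133, median levels of 40.6 to 53.7 TPM and median SDs of 0.10 to 0.15. Dropping transcripts or changing the divisor shifts a level by construction; the cause of the other changes was not tested. No paired analysis was possible because there is 1 group. The split of reads between transcripts that share most of their bases is uncertain.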
